A study of Mus musculus with 64 samples.

Results

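Microglia isolated from the hippocampus were compared with microglia isolated from the frontal cortex of adult male mice, C57BL/6 in the labels and C57BL6/N in the study's methods, using the libraries labelled day. The members were all 32 day libraries of the 64 libraries in the series, chosen by their labels alone: 16 titled hippocampus and 16 titled frontal cortex. Each region held 4 libraries of each of 4 condition labels, Soci, Cogn, Ctr0 and Ctr1, whose meaning the labels do not give, nor do they say which phase of the light cycle day and night stand for. No genetic modification or drug is named for any group. All mice were kept on a reversed light cycle, brains were perfused and dissociated mechanically in the cold, and cells were taken by a Percoll gradient and magnetic beads against CD11b, so every library is a bead-enriched preparation and not a pure culture. Total RNA was sequenced after depletion of ribosomal RNA. The labels do not say whether a hippocampal and a cortical library with the same number came from 1 animal, nor whether libraries of a group came from separate animals, so the p-values measure the spread between libraries, which may be partly technical.

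Microglia are the resident macrophages of the brain. They survey the tissue with motile processes, clear debris and synapses, and keep a homeostatic gene programme held by factors such as Sall1 and PU.1. The CD11b antigen used for the isolation is shared with macrophages of the brain borders, monocytes and neutrophils. The hippocampus lies beside the choroid plexus, the epithelium that secretes cerebrospinal fluid, and beside ventricle walls lined with ciliated ependymal cells, while the frontal cortex lies beside the striatum. RNA of these neighbours and of neurons can therefore enter a microglial preparation, and in bulk libraries fewer cells of a type cannot be told apart from less RNA per cell. Levels below are CPM, counts per mega counts of the library, with library sizes scaled by TMM over the 32 day libraries, and differences are log2 fold changes of hippocampus over frontal cortex, so positive values mean higher in hippocampus.

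The defining markers of microglia were abundant in every library. Siglech, a sialic acid-binding receptor, ranged from 418.5 to 576 CPM in the hippocampal and from 489 to 626 CPM in the cortical libraries. P2ry12, the purinergic receptor that guides microglial processes, ranged from 1438 to 2327 CPM and from 1582 to 2625 CPM. Tmem119 ranged from 963 to 1527 CPM and from 1000 to 1884 CPM. These 3 markers were thus among the abundant genes of both regions. Total counts per library ran from 11.6 to 62.2 M in the hippocampal and from 10.2 to 24.5 M in the cortical libraries, where M stands for mega.

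The region labels were checked with genes of regional neurons, whose RNA is present at low level in these preparations. An index was formed for each library from 7 genes of hippocampal neurons, such as C1ql2, Fibcd1 and Dsp, and 11 genes of cortical neurons. The cortical genes, given further on, include Rorb, Foxp2 and Tshz2. The index is the mean log2 CPM of the hippocampal genes minus that of the cortical genes. In the night libraries, which enter none of the day comparisons, the index ran from -0.475 to 0.638 in 16 hippocampal libraries and from -2.97 to -1.88 in 16 cortical libraries, with no overlap. In the day libraries 12 of 16 cortical libraries lay between -2.39 and -1.98, and 12 of 16 hippocampal libraries between -0.475 and 0.0386. The other 8 lay more than 3 SD from the night mean of their own label. The libraries labelled cortex were Soci 4 at -1.14, Cogn 4 at -0.172, Ctr0 1 at -0.142 and Ctr1 1 at -0.857. The libraries labelled hippocampus were Soci 4 at -2.58, Cogn 4 at -1.68, Ctr0 2 at -2.36 and Ctr1 1 at -1.06. Each condition thus held 1 such library of each region label, and in 3 conditions both carried the same number. Of the 8, 5 lay within 3 SD of the night mean of the opposite label and 3 lay between the regions.

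**Figure D1:**
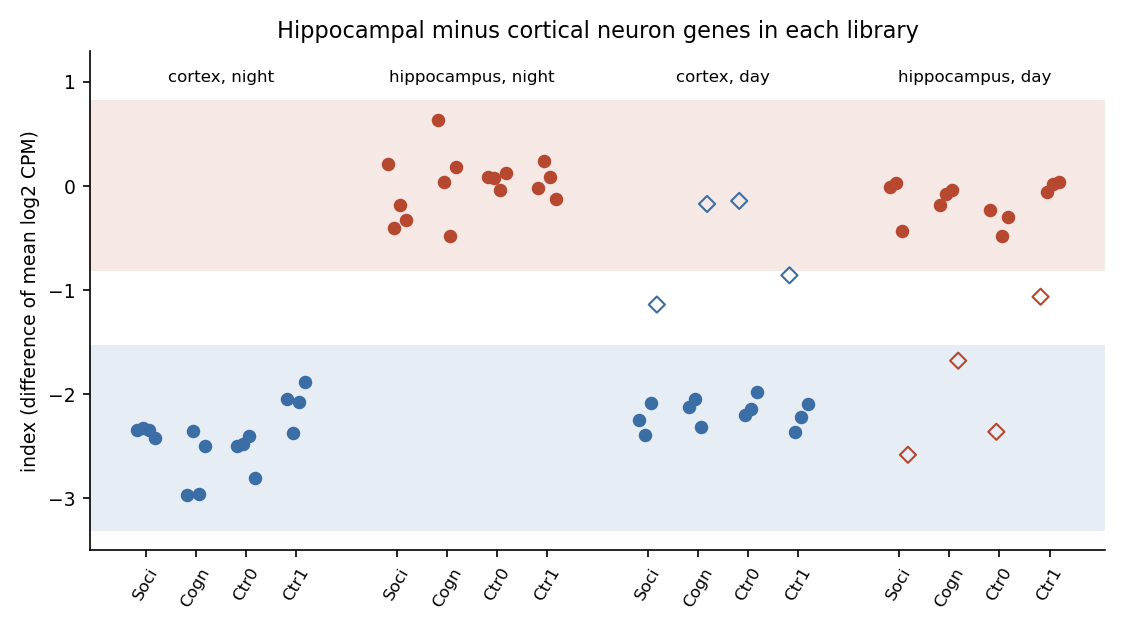
Index of hippocampal minus cortical neuron genes (difference of mean log2 CPM, y axis) in each of the 64 libraries, by region label, phase and condition (x axis). The bands cover 3 SD around the night mean of each label. Open diamonds are the 8 day libraries outside the band of their own label, 1 in each group of 4.

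Genes outside the index were mixed in these libraries. Gfap, the intermediate filament of astrocytes, named here after its values were seen, ran from 9.01 to 18.5 CPM in the 12 other hippocampal libraries and from 1.54 to 6.23 CPM in the 12 other cortical libraries. In the 4 set-apart libraries labelled cortex it ran from 8.99 to 17.4 CPM, and in the 4 labelled hippocampus from 2.84 to 6.5 CPM. Its order in the 8 was thus opposite to their labels. The astrocyte list it belongs to did not move with it between the regions. Of 18 tested astrocyte genes, 9 lay above 0 and 9 below without the 8 (median -0.01). Lars2, treated further on, was at 31.98, 32.7 and 72.3 CPM in Soci 4, Ctr0 2 and Cogn 4 labelled hippocampus, within the 19.3 to 248.5 CPM of the 12 others of that label, and at 1216 CPM in Ctr1 1. In the libraries labelled cortex Lars2 was at 485 and 279 CPM in Soci 4 and Cogn 4, within the range of the 12 others of that label, and at 41.0 and 17.6 CPM in Ctr0 1 and Ctr1 1, below it. Dcx, treated further on, ran from 1.11 to 1.857 CPM in the set-apart libraries labelled hippocampus. In those labelled cortex it ran from 0.5929 to 0.8803 CPM, also opposite to the labels. Ccr2 was at 22.2, 22.62 and 23.01 CPM in Ctr0 2, Soci 4 and Cogn 4 labelled hippocampus, but at 11.13 CPM in Ctr1 1. In the set-apart libraries labelled cortex it ran from 11.14 to 13.29 CPM. The ranges of Meis2 and H2-Aa, given further on, overlapped between the labels. The origin of the 8 libraries was not tested, and they keep their labels throughout. Counts of genes and list medians are given with all 32 libraries and without these 8, which leaves 12 libraries against 12 and 3 in each group. Every gene said below to rise or fall between the regions did so without the 8. Apart from Gm15564 and Lars2, none of these was called with 32 by edgeR, the main test.

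With all 32 libraries, 16103 genes were tested by the quasi-likelihood test of edgeR with condition as a term. No gene was higher in hippocampus (0% of genes tested) and 2 were lower (0.0124%), at a Benjamini-Hochberg adjusted p under 0.05, although 2098 genes had an unadjusted p under 0.05. DESeq2 called 1 gene higher and 14 lower on the same libraries, and only 1 of the 2 genes was among them. Without the 8 libraries, 15931 genes were tested, of which 1378 were higher in hippocampus (8.65%) and 540 lower (3.39%). The 2 genes called with 32 libraries were among them. The median log2 fold change over all tested genes was -0.01 with 32 libraries and -0.02 with 24. Leaving out only the 5 libraries within 3 SD of the night mean of the opposite label gave 1049 genes higher and 229 lower.

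Choroid plexus genes stood highest in the hippocampal libraries. The list holds 22 genes of choroid plexus epithelium, of which 21 were measured well enough to test. None was called with all 32 libraries, where their median log2 fold change was 1.78 with all 21 above 0. All 21 rose without the 8 libraries, beside 8.65% of all genes, with a median of 3.78 beside -0.02 over all genes. The scarce members, such as Kcne2, can pass the count filter through the region where they are higher. For them the lack of falls carries little weight. With log2 total count as a further term 1 of the 21 was called, and the median was 3.02 with all 21 above 0. The summed level of the list ran from 5.25 to 986 CPM (median 289.5) in the 16 hippocampal libraries and from 12.4 to 497 CPM (median 28.01) in the 16 cortical libraries. Without the 8 it ran from 20.1 to 986 CPM in hippocampus and from 12.4 to 42.2 CPM in cortex, and these ranges still overlapped.

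Ttr encodes transthyretin, the thyroid hormone carrier that choroid plexus secretes into cerebrospinal fluid. Its level ran from 0.666 to 769 CPM (median 216) in the hippocampal libraries and from 5.16 to 395 CPM (median 18.3) in the cortical ones. The cortical libraries above 100 CPM were Soci 4, Cogn 4 and Ctr1 1, all among the 8. The log2 fold change was 1.96 with 32 libraries (adjusted p = 0.292, edgeR) and 4.11 ± 0.48 (SE) without the 8 (adjusted p = 2.9e-06, n = 12 and 12). Without the 8, the hippocampal library Soci 1 was lowest at 12.8 CPM, within the cortical range of 5.16 to 26.7 CPM.

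Other members were spread over a similar range. Kl, klotho, the co-receptor of fibroblast growth factor 23, ran from 0.740 to 57.5 CPM in hippocampus and from 0.676 to 18.2 CPM in cortex, with a log2 fold change of 2.05 over 32 libraries (adjusted p = 0.228, edgeR) and 3.78 over 24 (adjusted p = 3.3e-06). Prlr, the prolactin receptor, reached 17.8 CPM in hippocampus and 8.34 CPM in cortex, and rose by 4.11 without the 8 libraries. Kcne2, a potassium channel subunit of the epithelium, rose by 4.33, Clic6, an intracellular chloride channel, by 3.79, and Car12, a carbonic anhydrase, by 2.65, all without the 8 libraries. Enpp2, the autotaxin that makes lysophosphatidic acid, is not on the list and rose by 3.55. When choroid plexus and ependymal levels entered the fit with those of 6 other cell types as scores, none of the 21 was called and their median was 0.15, as a term made from the same genes takes up their difference. These genes varied together within groups. After the means of region and condition were removed, 67 genes followed the choroid plexus list at a Pearson r of at least 0.7 over 24 libraries, and 59 of these were called higher. That is 4.28% of the genes called higher and 0.421% of the genes tested, a description across libraries that share depth and preparation.

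**Figure D2:**
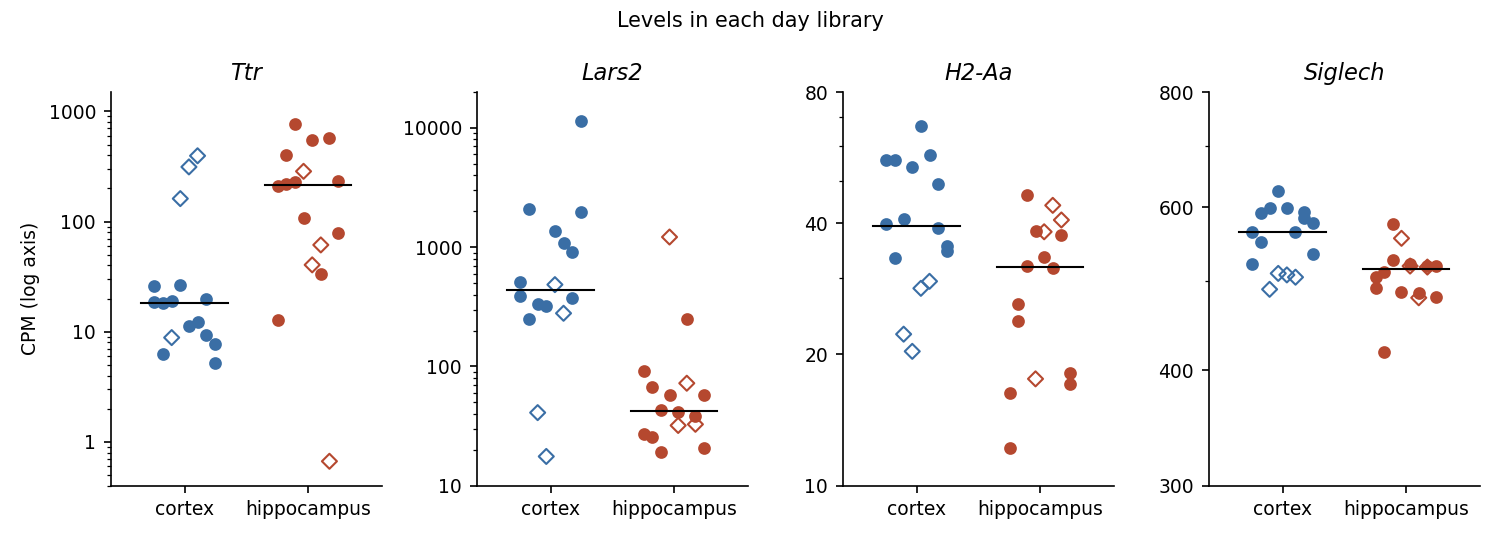
Levels (CPM, log axes) of Ttr, Lars2, H2-Aa and Siglech in each day library, by region label. Filled points are the 24 other libraries, open diamonds the 8 set apart, and bars the medians of 16 libraries. Ttr is above 100 CPM in 3 of the 4 set-apart cortical libraries, and Siglech is 489 CPM or more in every cortical library.

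Genes of motile cilia, which ependymal cells carry, were scarce. Of 33 listed genes 13 could be tested, and none was called with 32 libraries (median 0.51). Leaving the 8 out, 6 rose and none fell, beside 8.65% of all genes that rose and 3.39% that fell, with a median of 0.75. Scarce genes can pass the count filter through the region where they are higher, so the lack of falls carries little weight. Foxj1, the master regulator of motile cilia, ran from 0.222 to 2.21 CPM in hippocampus and from 0.0738 to 1.502 CPM in cortex, and rose by 2.04 ± 0.37 (SE) without the 8 libraries (adjusted p = 0.00045, edgeR). Drc7, a subunit of the nexin-dynein regulatory complex, rose by 3.81, Rsph4a, a radial spoke protein, by 3.40 and Cfap54, a ciliary central apparatus protein, by 1.01. Within groups Drc7 and Rsph4a followed the choroid plexus list more closely than the ependymal list, and choroid plexus epithelium also makes cilia. Rsph4a had no read in 8 of the 16 cortical libraries, so the size of its rise is uncertain. With scores of 8 other cell types as terms, Rsph4a and Cfap54 changed sign, to -0.56 and -0.14.

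The X-box, the site of RFX factors that drive cilia genes, was searched as GTTGCC followed after 0 to 3 bases by GGNAAC on both strands of RefSeq promoters (GRCm38.p6), each 300 bases around an annotated start. It was present for 2 of 28 ependymal genes with a promoter entry, Pifo and Fam183b, and for 0.644% of 27025 genes. Both are shown, with the X-box in capitals, because they are the promoters of the list that hold the site. The first is chr3:106001484-106001537, on the strand opposite to the gene, and the second chr11:58801944-58801996, on the strand of the gene.
Pifo: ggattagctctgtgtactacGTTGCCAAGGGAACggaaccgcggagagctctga
Fam183b: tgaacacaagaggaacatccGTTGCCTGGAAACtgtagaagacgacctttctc
Both genes were too low to test, Pifo at no more than 0.496 CPM in hippocampus and 0.189 CPM in cortex, and Fam183b without a read in 15 of 16 libraries of each region. The letters GAGGAAGT, a site of PU.1, were in promoters of 2 of 21 homeostatic microglia genes and 0 of 9 microglial transcription factors, beside 3.69% of all genes. TAATCC, a site of the choroid plexus factor OTX2, was in 3 of 17 choroid plexus genes, beside 8.14% of all. These are matches of letters only.

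The 25 genes of mature neurons summed to between 491 and 1835 CPM (median 1026) in the hippocampal and between 477 and 1789 CPM (median 820) in the cortical libraries. Of 24 tested, none was called with 32 libraries (median 0.22). Leaving the 8 out, 10 rose and 2 fell, beside 8.65% of all genes that rose and 3.39% that fell, with a median of 0.49. Camk2b, a subunit of calmodulin kinase II in excitatory synapses, rose by 1.05, Slc17a7, the vesicular glutamate transporter, by 0.84, and Syp, the vesicle protein synaptophysin, by 0.79. Gad1, which makes the inhibitory transmitter GABA, fell by 0.79 (adjusted p = 0.0146, edgeR).

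Genes of regional neurons served to set the 8 libraries apart, so their values are a description. Without the 8, the 7 hippocampal genes tested all lay above 0 (median 2.7). Of the 11 cortical genes 7 lay below 0 and 4 above (median -0.07). Of these 1 was called lower and 2 higher, beside 3.39% and 8.65% of all genes. Foxp2 fell by 1.41, Tshz2 rose by 1.02, and Rorb, at -0.36, was not called. C1ql2, a complement-like protein of mossy fibre synapses, ran from 1.07 to 2.96 CPM in the 12 hippocampal and from 0 to 0.293 CPM in the 12 cortical libraries. Fibcd1, a marker of pyramidal cells, ran from 1.95 to 6.39 CPM and from 0 to 0.924 CPM. In the 4 set-apart libraries labelled hippocampus Fibcd1 was 0.0709, 0.222, 0.912 and 1.77 CPM, and in the 4 labelled cortex 1.45, 1.88, 4.36 and 5.55 CPM. These lists and the neuronal genes that vary with them share that RNA with the index, and their differences without the 8 libraries are no independent support for it.

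Several of the highest rises without the 8 libraries lay outside the choroid plexus list. Shisa6, an auxiliary subunit of AMPA receptors, ran from 3.58 to 20.6 CPM in the 12 hippocampal and from 0.590 to 2.54 CPM in the 12 cortical libraries, without overlap, and its log2 fold change was 3.09 ± 0.25 (SE). With all 32 libraries both regions reached 20.6 CPM and the log2 fold change was 1.23 (adjusted p = 0.292, edgeR). Tnxb, a tenascin of the extracellular matrix, rose by 3.08, Dnah9, an axonemal dynein chain, by 2.77, Pkp2, a desmosomal plakophilin, by 2.71, and Slc9a2, a sodium-proton exchanger, by 2.39, each without overlap between the 12 and the 12. Dnah9 and Pkp2 followed the mature neuron list within groups, and Tnxb and Shisa6 followed the list of hippocampal neurons. The libraries had been chosen by an index of neuron genes, and the share of all tested genes without overlap was not counted.

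A further 10 genes, all of which followed the mature neuron list within groups, rose also with scores of 8 other cell types as terms, a fit in which 61 genes were called higher (0.383%) and 22 lower (0.138%), and 75 of these 83 had been called without scores. Slit1, an axon guidance ligand, ran from 37.5 to 205 CPM in the 12 hippocampal and from 10.5 to 39.3 CPM in the 12 cortical libraries, and rose by 2.43 without scores and 2.25 with them (adjusted p = 1.6e-05, edgeR). Cpne7 and Cpne6, calcium-dependent copines, rose by 2.60 and 1.83 without scores. Epha6, an ephrin receptor, rose by 1.76, Nptx1, a neuronal pentraxin, by 1.54, Ly6h by 1.35, Cacna1h, a T-type calcium channel, by 1.35, Gria1, an AMPA receptor subunit, by 1.33, Sez6l by 1.26 and Hs3st4, a heparan sulfotransferase, by 1.25. All 10 had lower log2 fold changes with scores, from 0.81 to 2.25. As the 24 libraries were chosen by an index of neuron genes, these p-values are no independent support for a difference in neuronal RNA. Among the genes lower in both fits, Col6a1, a chain of collagen VI, ran from 11.9 to 59.5 CPM in the 12 hippocampal and from 38.2 to 116 CPM in the 12 cortical libraries. It fell by 0.85 without scores and by 1.69 with them (adjusted p = 2.1e-06, edgeR), and had a log2 fold change of -0.39 with 32 libraries (adjusted p = 0.503). Of the 1378 genes called higher, 476 followed the mature neuron list within groups, 34.5% beside 5.34% of the genes tested, and 32.4% followed no list.

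The genes lower in hippocampus included Rgs9 and Meis2. Rgs9, which speeds the end of dopamine receptor signalling in striatum, ran from 1.09 to 6.08 CPM in the 12 hippocampal and from 2.51 to 16.6 CPM in the 12 cortical libraries, and fell by 1.69 ± 0.28 (SE). Its fall was 2.77 with the 8 scores (adjusted p = 0.0248, edgeR). Meis2, a homeobox factor of striatal and interneuron lineages, ran from 2.01 to 9.74 CPM and from 7.99 to 21.7 CPM and fell by 1.34. Kcnh4, a potassium channel, fell by 1.37, Ccdc187 by 1.37, Gm17229 by 1.14, and Otof, otoferlin, by 0.97, all without the 8 libraries. With 32 libraries none of these was called, and the log2 fold change of Meis2 was -0.78 (adjusted p = 0.243). Meis2 was at 4.84 to 13.3 CPM in the set-apart libraries labelled cortex and at 7.47 to 18.3 CPM in those labelled hippocampus, which overlap.

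Immature neuron genes moved both ways. Of 18 listed 14 were tested, and none was called with 32 libraries (median -0.41). Without the 8 libraries 3 rose and 6 fell (median -0.38), beside 8.65% of all genes that rose and 3.39% that fell. Dcx, doublecortin of migrating neuroblasts, ran from 0.323 to 0.869 CPM in the 12 hippocampal and from 0.733 to 3.48 CPM in the 12 cortical libraries and fell by 1.65 ± 0.23 (SE). Sp9, a factor of interneuron precursors, fell by 1.33. Neurod2, a factor of excitatory neurons that mature cells keep, rose by 1.59.

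Among other glia, the list medians with 32 libraries were 0.29 for oligodendrocyte precursors, -0.02 for oligodendrocytes and -0.12 for astrocytes, with no gene called, and 8 of 10 tested genes of oligodendrocyte precursors rose without the 8 libraries (median 0.68), with Sox10, the lineage factor, up by 0.95 and Pdgfra, the growth factor receptor, by 0.59. This count and those that follow here stand beside 8.65% of all genes that rose and 3.39% that fell without the 8. Of oligodendrocyte genes 3 of 10 rose, among them Cldn11, a claudin of myelin, by 1.01. The oligodendrocyte median was 0.41 without the 8 libraries and -0.06 with the 8 scores, so its direction depended on the libraries and terms used. Astrocyte genes were mixed, with 4 of 18 up and 1 down. Clu, clusterin, rose by 0.81, and Slc1a3, a glutamate transporter, fell by 0.31. Of endothelial genes none of 17 was called with 32 or 24 libraries, and their median was 0.05 without the 8. With 32 libraries no mural cell or meningeal fibroblast gene was called, at medians of 0.16 and 0.37. Of 10 mural cell genes 4 rose without the 8, Acta2, smooth muscle actin, by 0.72 and Myh11, its myosin, by 0.64. Of 8 meningeal fibroblast genes 2 rose, Igf2, a growth factor, by 1.03 and Ptgds, prostaglandin D synthase, by 0.73. Igf2 and Ptgds are also made by choroid plexus. Within groups, however, Igf2 followed the mural cell list and Ptgds the meningeal fibroblast list. The source of their RNA was not tested.

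Other CD11b-positive cells went the opposite way. Of 16 listed genes of neutrophils and monocytes 11 were tested. All 11 lay below 0 with 32 libraries (median -0.94) and with 24 (median -1.25), where 3 fell, beside 3.39% of all genes. Here too, scarce genes can pass the count filter through the region where they are higher. Their summed level ran from 11.3 to 40.3 CPM in the 12 hippocampal and from 23.3 to 189 CPM in the 12 cortical libraries. Ccr2, the chemokine receptor of monocytes, ran from 7.17 to 24.9 CPM and from 13.2 to 29.0 CPM and fell by 0.77 ± 0.14 (SE, adjusted p = 0.00036, edgeR). Ngp, a neutrophil granule protein, fell by 1.42. Of 16 genes of border macrophages none was called with 32 libraries (median -0.15). Leaving the 8 out, 3 fell and none rose (median -0.26), beside 3.39% of all genes that fell. The lectins Clec10a and Mgl2 were among the 3, down by 0.64 and 0.60. Lymphocyte genes were near background, with 1 of 16 tested and not called.

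Microglial genes differed little between regions. With 32 libraries none of the 30 homeostatic genes was called and their median was -0.09, with 28 below 0. Leaving the 8 out, 6 fell and none rose (median -0.12), beside 3.39% of all genes called lower. Siglech ran from 418 to 576 CPM (median 508) in the 12 hippocampal and from 521 to 626 CPM (median 581) in the 12 cortical libraries and fell by 0.19 ± 0.04 (SE, adjusted p = 0.0030, edgeR). Cd33, a related receptor, fell by 0.23, Fcrls, an Fc receptor-like protein, by 0.32, and Lag3, an inhibitory receptor, by 0.44. With 32 libraries these 4 had log2 fold changes from -0.30 to -0.13 and were not called. Of 12 microglial transcription factors none was called with 32 or 24 libraries. Sall1 was at 520 to 672 CPM in hippocampus and 521 to 722 CPM in cortex. Within groups 1569 genes followed the homeostatic list, at a median of -0.085 without the 8. Of the genes called lower 103 were among them, 19.1% beside 9.85% of the genes tested, and of those called higher 4. No list was followed by 73.9% of the genes called lower.

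**Figure D3:**
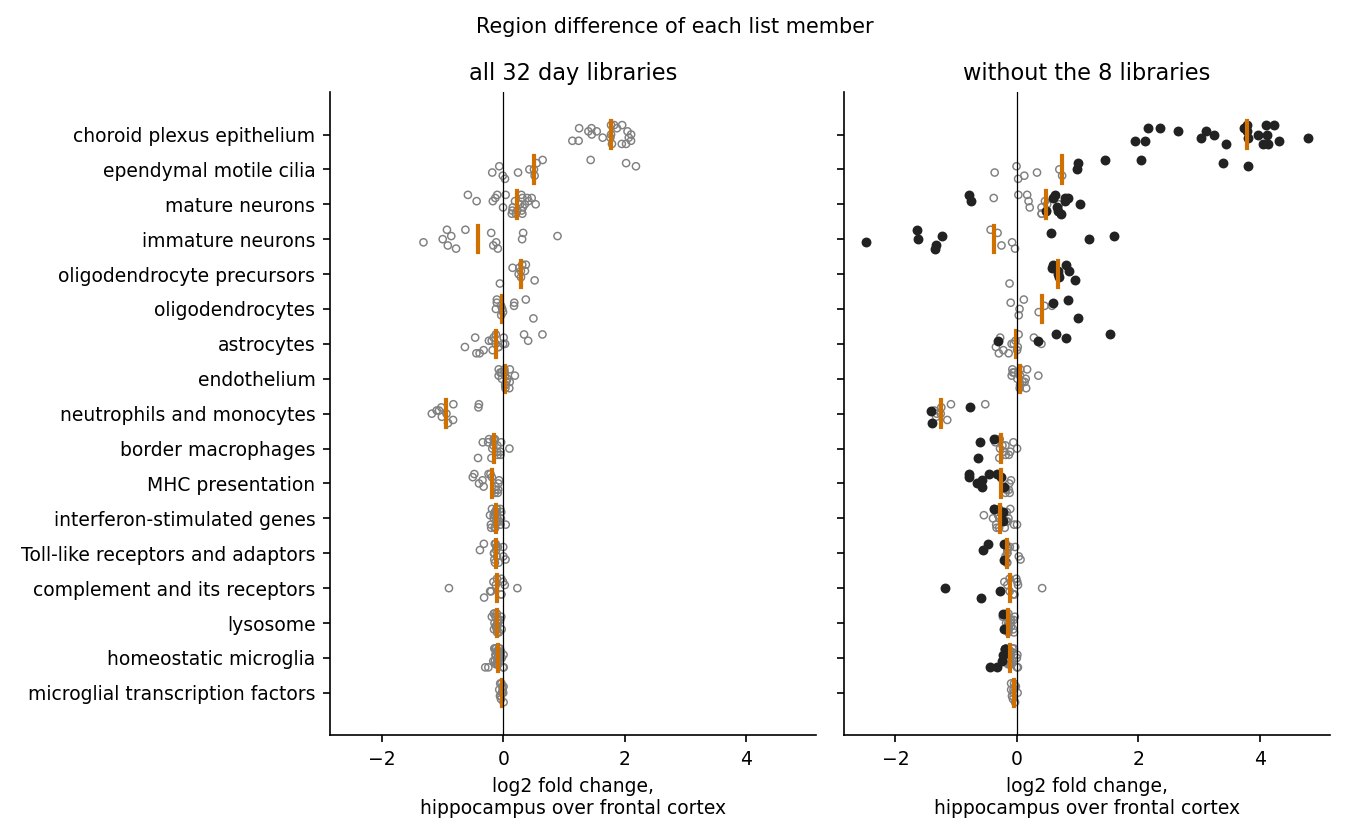
Log2 fold change of hippocampus over frontal cortex (x axis) for each tested member of 17 gene lists (y axis), with all 32 day libraries (left) and without the 8 set-apart libraries (right). Filled points passed an adjusted p of 0.05, open points did not, and bars are list medians. Choroid plexus genes lie farthest to the right, at a median of 3.78 without the 8, and homeostatic microglia genes close to 0, at -0.12.

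These microglial differences were compared with the shift between ways of scaling, which moved the median of all genes from -0.02 to 0.09 (homeostatic genes). When library sizes were scaled to the summed homeostatic genes, 2 of the 30 rose and 2 fell, their median was -0.01 by construction, all 12 transcription factors lay above 0 (median 0.06), and Sall1 changed sign to 0.02. With library totals alone, 29 of 30 fell and the median of all genes was itself -0.25. The summed level of the 30 genes ran from 22570 to 31660 CPM in hippocampus and from 23720 to 37050 CPM in cortex. With log2 total count as a term, or with the 8 scores, none of the 30 was called.

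Antigen presentation genes were lower in hippocampus by more. All 15 MHC presentation genes lay below 0 with 32 libraries (median -0.19, none called) and with 24 (median -0.27), where 9 fell, beside 3.39% of all genes. H2-Aa, a chain of MHC class II, ran from 12.2 to 46.4 CPM (median 28.8) in the 12 hippocampal and from 33.3 to 66.7 CPM (median 45.0) in the 12 cortical libraries and fell by 0.78 ± 0.18 (SE, adjusted p = 0.0039, edgeR). In the set-apart libraries labelled cortex it ran from 20.3 to 29.4 CPM, below the 12 others of that label. In those labelled hippocampus it was at 38.2, 40.7 and 44.0 CPM in Soci 4, Ctr0 2 and Cogn 4, within the ranges of both regions. It was at 17.6 CPM in Ctr1 1, within the hippocampal range only. Ciita, the master regulator of class II genes, fell by 0.79, H2-K1, a class I heavy chain, by 0.33, and Tap1, a peptide transporter, by 0.21. Scaled to homeostatic genes, 6 of 15 fell and 14 of 15 lay below 0. None of the 15 was called with log2 total count as a term, with neuron scores or with the 8 scores, at medians of -0.18, -0.16 and -0.17. Class II genes are also made by border macrophages and monocytes, of whose lists 3 of 16 and 3 of 11 genes fell, with the border macrophage list at 1350 to 1806 CPM in the 12 hippocampal and 1565 to 2069 CPM in the 12 cortical libraries, and within groups H2-Aa followed the border macrophage list. The part of those cells in the fall was not tested.

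Other immune lists held a few small falls without the 8 libraries beside the 3.39% of all genes that fell and the 8.65% that rose, and no list is set apart from these shares here. None of their members was called with 32 libraries, with log2 total count as a term or with the 8 scores. Of 16 Toll-like receptors and adaptors 4 fell and none rose (median -0.16): Tlr12 fell by 0.55 ± 0.09 (SE), Tlr8 by 0.48 and Tlr6 by 0.22. Of 13 complement genes 3 fell, C3ar1, the receptor of C3a, by 0.28, C4b by 0.58 and C3 by 1.18. C3 changed sign to 0.22 with neuron scores and to 0.39 with the 8 scores. Of 23 interferon-stimulated genes 3 fell (median -0.27), with Trim30a down by 0.23 and Slfn2 by 0.38. None of the 23 was called after scaling to homeostatic genes. Of 20 lysosomal genes 2 fell, Gusb, beta-glucuronidase, by 0.20 and Ctsa, a protective carboxypeptidase, by 0.22. Il1a, interleukin 1 alpha, fell by 0.38 and Ccl4, a chemokine, rose by 0.46, the 2 called of 16 chemokines and cytokines. Of 15 disease-associated microglia genes Gpnmb, a lysosomal glycoprotein, fell by 1.604 and Lpl, lipoprotein lipase, rose by 0.43.

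Lists of cell state were also counted without the 8 libraries, beside the 8.65% of all genes that rose. Of 17 cell cycle genes 4 rose and none fell (median 0.29), with Mki67, the proliferation antigen, at 4.85 to 12.3 CPM in the 12 hippocampal and 4.47 to 6.74 CPM in the 12 cortical libraries (up by 0.71 ± 0.12, SE) and Rrm2, a ribonucleotide reductase, up by 0.88. Within groups Mki67 followed the choroid plexus list. Of 18 clock genes Bhlhe41 rose by 0.18 and Bhlhe40 by 0.38. The Bhlhe41 difference was -0.04 with library totals, a scaling that moved the median of all genes to -0.25, so it stayed above that median, and Bhlhe40 turned to -0.04 with the 8 scores. The 2 of 18 clock genes and 2 of 22 immediate early genes that rose are near that share. The immediate early genes were Nr4a2, up by 0.97, and Egr1, up by 0.43. Of 7 tested genes of the mitochondrial genome 2 rose, mt-Nd1 by 0.46 and mt-Co1 by 0.35. None of 12 glucocorticoid response, 13 heat shock and cold-inducible, 17 cholesterol synthesis and 28 nuclear respiratory chain genes was called with 32 or 24 libraries. Of 12 purinergic receptors and ion channels 1 fell, beside 3.39% of all genes, and of 5 haemoglobin genes none was called.

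The largest falls among the named genes lay at Lars2 and at short or antisense loci, several of them on the list of 9 loci known to collect ribosomal RNA reads. With all 32 libraries edgeR called 2 genes, of which DESeq2 called 1. The first was Gm15564, an antisense gene at chr16:35966752-35983230. The other was Lars2, the mitochondrial leucyl-tRNA synthetase at chr9:123366927-123462666 (GRCm38, GENCODE M21). Lars2 ran from 19.3 to 1216 CPM (median 42.2) in the hippocampal and from 17.6 to 11340 CPM (median 436) in the cortical libraries. Its log2 fold change was -3.49 with 32 libraries (adjusted p = 0.0188, edgeR) and -4.37 without the 8, where the highest hippocampal library, at 248.5 CPM, lay just under the lowest cortical one, at 251.5 CPM. Gm15564 ran from 0 to 5.36 CPM in the hippocampal and from 0 to 35.7 CPM in the cortical libraries, at -3.49 with 32 libraries (adjusted p = 0.0034) and -4.54 without the 8. Without the 8 libraries Mir6236 fell by 4.08 and Gm23935 by 3.04, both on that list, and Gm24270 fell by 4.22 and Gm25911 by 7.14, which are annotated as miRNA genes and are not on it, and Gm25911 had no read in 5 hippocampal and 2 cortical libraries. With 32 libraries the log2 fold changes were -3.32 for Mir6236, -1.915 for Gm23935 and -2.65 for Gm24270, none of them called. That of Gm25911 was -1.465 ± 1.79 (SE, adjusted p = 0.773, edgeR), so its large fall depended on leaving out the 8. Whether the reads at Lars2 came from its mRNA or from ribosomal RNA was not tested.

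Gm23935 took 0.0894% to 3.19% of all counts in the hippocampal libraries (median 0.347%) and 0.145% to 7.21% in the cortical ones (median 3.51%). The means, 0.890% and 3.76%, differed by a 2-sided permutation test with 100000 resamples, adjusted over 11 measures (p = 2e-05, the smallest these resamples can give; adjusted p = 0.00011). It was at 1% or more in 14 of 16 cortical and 4 of 16 hippocampal libraries, and without the 8 in 12 of 12 and 1 of 12. Total counts differed as well, 19.3 ± 11.8 M (SD) in hippocampus and 13.6 ± 3.4 M in cortex (permutation adjusted p = 0.019), and 17.2 ± 2.3 and 12.4 ± 1.6 M without the 8. Gm26917, another such locus, took 29.3% to 52.2% of counts in hippocampus and 19.2% to 51.3% in cortex (permutation adjusted p = 0.0147). The summed share at all 9 loci was higher in hippocampus, opposite to Gm23935 and Lars2, at 48.9% and 44.2% with 32 libraries (permutation adjusted p = 0.142) and 50.0% and 41.9% without the 8 (permutation adjusted p = 0.0105). Depth and the share of reads at these loci therefore moved with region and cannot be told apart from it in the 24 libraries. With log2 total count as a term, 64 genes were called higher and 10 lower of the 1918. The 1 hippocampal library of the 24 with Gm23935 above 1%, Ctr0 4 at 2.62%, had Ttr at 579 CPM and H2-Aa at 37.7 CPM. Both lay within the range of the other 11 hippocampal libraries. As this is 1 library against wide ranges, it does not separate that share from region, which was not tested.

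Within single conditions, 4 libraries against 4, no gene was called in Soci, Cogn, Ctr0 or Ctr1 (0% in each). The counts at an unadjusted p under 0.05 were 878, 733, 605 and 1165. Without the 8 libraries, 3 against 3, 13 genes were called in Soci (0.0816%), 84 in Cogn (0.527%), 153 in Ctr0 (0.96%) and 391 in Ctr1 (2.45%). Ttr had a log2 fold change of 3.77 in Soci, 4.23 in Cogn, 5.001 in Ctr0 and 3.40 in Ctr1, and passed in Ctr0 (adjusted p = 0.0191, edgeR). H2-Aa had -1.38, -0.84, -0.17 and -0.75 and passed in none. A test of whether the region difference differed among the 4 conditions called 0 genes (0%) by edgeR or DESeq2 with 32 libraries, where 385 had an unadjusted p under 0.05, and 0 (0%) by edgeR with 24, where 378 did.

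The region difference was last compared between day and night libraries. With all 64 libraries it differed for 194 of 17140 genes (1.13%), 56 with a more positive and 138 with a more negative difference by day. Without the 8 libraries it differed for 36 of 17288 (0.208%), 10 and 26, and 32 of the 36 were among the 194. Slc4a2, a chloride-bicarbonate exchanger, had a log2 fold change of 0.14 by day and 0.92 by night (adjusted p = 0.00076, edgeR, without the 8). Slc12a4, a potassium-chloride cotransporter, had -0.02 and 0.54, and Cab39l, a scaffold of the kinase Stk11, had 0.26 and 1.33. Islr2, a neuronal membrane protein, had 0.65 by day and -0.46 by night. No choroid plexus gene differed without the 8 libraries, with list medians of 3.84 by day and 3.96 by night, while 4 had differed with all 64. Of 17 immature neuron genes 2 differed without the 8 and 10 with all, and the median was -0.32 by day and -1.24 by night. No homeostatic microglia gene differed in either fit.

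**Figure D4:**
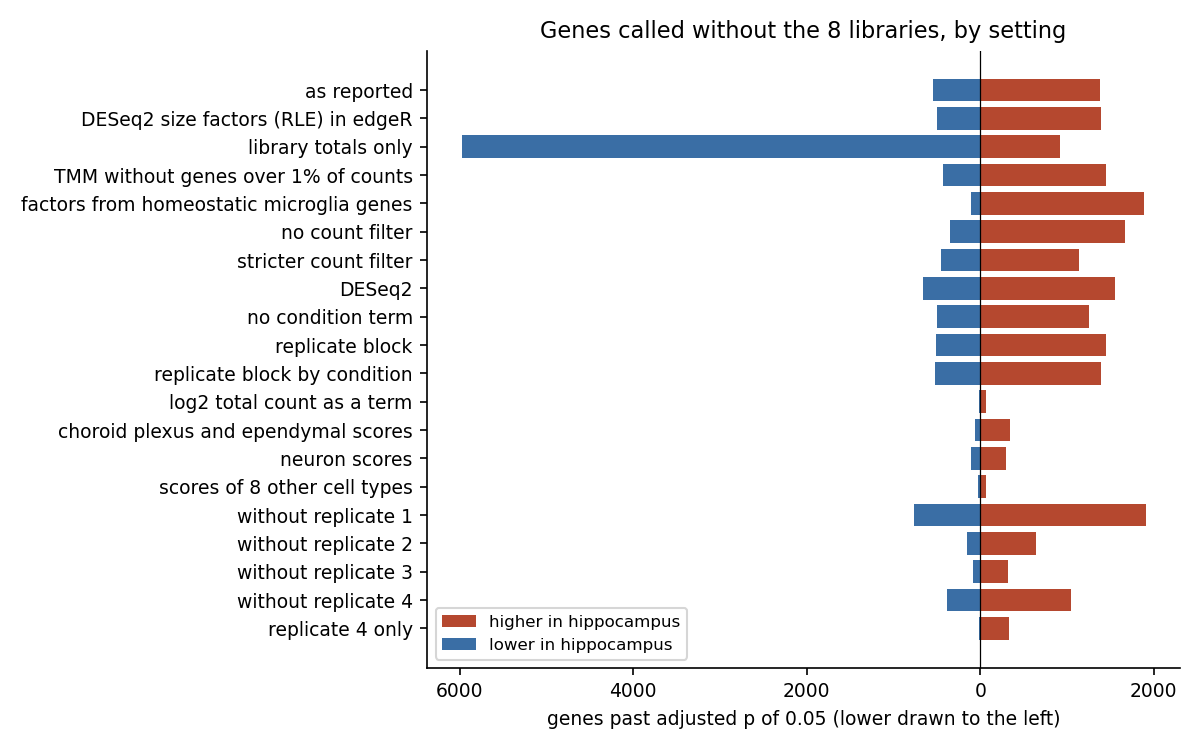
Number of genes called higher (to the right of 0) or lower (to the left) in hippocampus without the 8 libraries, for the reported fit and each other setting. The reported fit has 1378 and 540, library totals alone 924 and 5977, and the fit with scores of 8 cell types 61 and 22.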

How the data were processed

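Total RNA of bead-isolated microglia was sequenced single-end after ribosomal RNA depletion. Per the labels' processing notes the authors used STAR 2.7.3a, featureCounts of Subread 2.0.0 and the build GRCm38.p5. They deposited raw counts per gene for 49671 Ensembl genes in 64 libraries, of which the 32 day libraries enter here. Strand and multi-mapping settings are not given in the sources used here. Symbols came from GENCODE M21 (49412 of 49671 matched).

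Counts were tested with edgeR 4.0.16 (R 4.3.3; filterByExpr, TMM, quasi-likelihood test, condition as a term, Benjamini-Hochberg adjustment over all genes), checked on simulated counts. The members and lists were chosen with earlier results of these data known. Named genes were the 12 highest and 12 lowest called genes whose mean log2 CPM reached 2 and which kept 1 direction in each replicate number, the 10 highest and lowest called with and without cell type scores at a mean of 4 or more, the 4 of each list with the lowest p, and for interactions the 3 with the lowest p. The rule was run on 32 libraries and, as chosen after seeing the data, without 8 libraries whose neuron index lay over 3 SD from the night mean of their label. Scores are mean centred log2 CPM (prior count 2) of a list.

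Permutation tests used scipy 1.17.1. Other settings were DESeq2 1.42.0, scalings, filters, blocks and left-out replicates. Total counts of 10.2 to 62.2 M put 3 counts at 0.0497 to 0.306 CPM, counting error only. Of 48 replicate pairs none was identical, with chi-square values per degree of freedom of 7.86 or more. No column was left unused, and 19114 genes had no read in day libraries.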

Additional observations from a re-analysis of the deposited data

Results flagged for a closer look

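In 8 groups of 4 libraries, 6 measures each, 16 of 48 tests found a library far from the other 3. Chance gives about 1 in 20 for independent, normally distributed values. These measures share libraries and were mostly taken on a linear scale, so the rates are not compared. The neuron index stood apart in the hippocampal libraries Cogn 4 (-1.68, nearest -0.186), Ctr0 2 (-2.36) and Ctr1 1 (-1.06) and in the cortical libraries Cogn 4 (-0.172) and Ctr0 1 (-0.142). All 5 are among the 8 libraries that were set apart by this same index, so this adds no support for setting them apart. Ttr stood apart in the cortical libraries Soci 4 (313 CPM, nearest 26.04), Cogn 4 (395 CPM) and Ctr1 1 (162 CPM), also among the 8. The total count stood apart in hippocampal Cogn 4 (62.2 M, nearest 20.1) and cortical Ctr0 1 (24.5 M, nearest 13.04). The share at Gm23935 stood apart in hippocampal Cogn 4 (3.19%), Ctr0 4 (2.62%) and Ctr1 1 (2.82%), with the nearest library of those groups at 0.525%, 0.246% and 0.392%. Lars2 stood apart in hippocampal Ctr1 1 (1216 CPM) and cortical Soci 2 (1356 CPM), and H2-Aa in hippocampal Ctr1 3 (38.4 CPM, nearest 18.2). The origin of these values was not tested.

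The region difference by day minus that by night was -0.80 for Slc4a2, -0.57 for Slc12a4 and -1.16 for Cab39l with 64 libraries, and 1.10 for Islr2 with 56, each past an adjusted p of 0.05 by edgeR's interaction test.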

How the results depend on the processing

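With 32 libraries the 2 genes lower and 0 higher were the same under RLE factors, library totals, TMM without genes over 1% of counts, homeostatic scaling, no filter and a stricter filter. DESeq2 called 15 (1 higher, 14 lower), with 1 of the 2 genes among them. A single gene (1), called lower, was left without the condition term, and 1 with the replicate block. No gene (0) was left with the block by condition, log2 total count, choroid and ependymal scores, neuron scores, 8 scores, replicate 4 only or libraries with Gm23935 at 1% or more. Leaving out each replicate gave 0 to 1805 calls, 0 to 1369 higher and 0 to 436 lower, the most without replicate 1, which holds 3 of the 8 libraries. Without replicate 4, which holds 4 of them, 43 were called (35 and 8), and without replicate 2 or 3 none (0). Leaving out the 8 libraries gave 1918 (1378 and 540). Leaving out the 5 within 3 SD of the night mean of the opposite label gave 1278 (1049 and 229). With 9 left out, the 8 and hippocampal Ctr0 3 just under the night range, 1705 were called (1340 and 365).

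Without the 8 libraries, library totals gave 6901 calls (5977 lower) with the median of all genes at -0.25, homeostatic scaling 107 lower, no filter 348 lower, log2 total count 74 (64 and 10), choroid and ependymal scores 402 (338 and 64), neuron scores 395 (294 and 101), 8 scores 83 (61 and 22), and replicate 4 only 346 (328 and 18). Leaving out each replicate gave 404 to 2673 calls, 317 to 1905 higher and 87 to 768 lower, the fewest without replicate 3. The cause was not tested. Libraries with Gm23935 at 1% or more could not be fitted, with 1 hippocampal library left. RLE, the stricter filter, DESeq2 and no condition term stayed within 1.5 times. Deviations of same-numbered libraries of the regions correlated at -0.60 to 0.43 over 16 pairs, 3 of them over 0.1, and at -0.52 to 0.46 over the 11 pairs left without the 8, 5 of them over 0.1, so a pairing is not shown and remains unknown. The replicate block gave 1955 calls and the block by condition 1909, of which 1795 and 1667 were shared with the reported 1918.

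Calls within conditions went from 0 to 13 (Soci), 84 (Cogn), 153 (Ctr0) and 391 (Ctr1) without the 8. Calls differing among conditions were 0 in every setting. Those differing between day and night ran from 15 to 196 when a replicate was left out, were 193 with the replicate block and 36 without the 8.

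Reversed log2 values were, with 32 libraries, Dcx at 0.10 (8 scores) and 0.10 (replicate 4 only) and Meis2 at 0.105 (replicate 4 only). Without the 8 they were Bhlhe41 at -0.04 (totals), Sall1 at 0.017 (homeostatic scaling), Clic6 at -0.10 (choroid and ependymal scores) and -0.345 (8 scores), C3 at 0.22 (neuron scores) and 0.39 (8 scores), Bhlhe40 at -0.037 (8 scores) and -0.058 (replicate 4 only), and with 8 scores Rsph4a at -0.56, Cfap54 at -0.14 and Clec10a at 0.15.

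The difference in the share at Gm42418, -0.146 percentage points, was 0.153 without the 8 and ranged from -0.472 to 0.089 without a replicate. The share at Mir6236 was -0.21 without the 8 and -0.189 to -0.0508 without a replicate, that at all 9 loci 8.17 and 3.10 to 8.87, at Gm26917 5.35 to 12.6, at Lars2 -0.161 to -0.0432, and the total count 3.17 to 7.53 M. Genes at a few CPM, the ciliary ones above all, rest on few reads.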
